A study of Mus musculus with 7 samples.

Results

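Transcripts of 31 genes of sterol synthesis and cholesterol handling were examined in pancreatic islets of 7-day-old mice, out of 49315 mouse genes counted in each of 7 libraries. The genes were listed by symbol, and each symbol matched 1 gene ID. They comprise 8 genes of the mevalonate steps, 12 of the squalene and sterol steps, 5 that regulate SREBP and 6 of cholesterol transport and export. Total RNA depleted of ribosomal RNA was sequenced from 4 βNrf2KO pools, numbered 1, 2, 3 and 4, and 3 control pools, numbered 1, 2 and 4. The βNrf2KO mice are labelled as lacking Nrf2, a transcription factor of the oxidative stress response, in β-cells only, and the controls are Nrf2lox/lox mice, which carry the loxP-flanked gene. The sources used here do not give the promoter that drives Cre recombinase. Each library was made from RNA of 5 animals, so p-values measure the spread between pools. Values per pool are given below in the order of the pool numbers.

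Cholesterol is built from acetyl-CoA through mevalonate, the isoprenoid farnesyl diphosphate, squalene and lanosterol. When sterols in the endoplasmic reticulum are scarce, SCAP escorts the SREBP transcription factors to the Golgi, where they are cleaved and then activate the genes of synthesis and uptake. When sterols are plentiful, INSIG proteins hold SCAP back, and oxysterols activate the LXR receptors, which induce the exporters ABCA1 and ABCG1. In β-cells, cholesterol in membranes and granules is known to affect insulin secretion.

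The pools held 18187382 to 20847474 counts in βNrf2KO and 21603654 to 25373105 in control. The Cre sequence had 23 to 73 counts in the βNrf2KO pools and 0 in each control pool, while Nfe2l2, the gene of Nrf2, differed by 0.08 ± 0.23 log2 (edgeR quasi-likelihood test, adjusted p = 0.911). Counts over whole genes and whole islets do not check a deletion in β-cells. The mitochondrial genome took 10.02% to 27.7% of counts in βNrf2KO pools and 14.6% to 51.8% in control pools, with the highest share in control pool 2. That pool was also the lowest of the 7 for 28.5% of all tested genes and the highest for 26.4%, more than any other pool, so fold changes of members without it are given below where it moves them by more than 1.5 times. Of marker lists, 6 of 8 β-cell genes had log2 fold changes above 0. All 8 summed to 32700 to 45080 CPM (counts relative to the scaled library size) in βNrf2KO and 16370 to 46810 CPM in control, the lowest in control pool 2. Ins1, Ins2 and Iapp made up nearly all of these sums. Mafa and Ins1 were below 0. Mafa was at 7.13 to 10.7 CPM in βNrf2KO and 12.2 to 16.9 CPM in control, without overlap (3.81% of all tested genes in this direction). It differed by -0.785 ± 0.218 log2 (edgeR, unadjusted p = 0.00379, adjusted p = 0.571), and Ins1 by -0.665 ± 0.308 (edgeR, unadjusted p = 0.052). All 8 mesenchymal markers were below 0 (526 to 1037 CPM in βNrf2KO, 613 to 1555 CPM in control), as were all 8 macrophage markers (47.1 to 73.9 and 54.4 to 99.9 CPM) and the 6 acinar markers tested. An unadjusted p under 0.05 by edgeR was found for 1 β-cell, 6 mesenchymal, 0 macrophage and 0 acinar markers. In the lower direction 5.23% of all tested genes had such a p. The summed level of all 9 acinar genes was 46.6 to 215.6 CPM in βNrf2KO and 52.8 to 388.4 CPM in control, with the amylase Amy2a5 at 0 in every pool. Of alpha cell markers 3 of 4, of delta cell markers 1 of 2, of endothelial markers 4 of 5 and of ductal markers 4 of 5 were above 0, of the hepatocyte list, which holds Ttr of islet alpha cells, 4 of 4. In that list Alb differed by only 0.01 ± 0.97 log2 and Apoa2 by 0.03 ± 0.67, with a wide spread between pools. Alb was read at 127.0, 107.2, 8.34 and 12.0 CPM in βNrf2KO pools and at 41.3, 86.9 and 60.9 CPM in control pools. Apoa2 and Cyp3a11 were likewise highest in βNrf2KO pools 1 and 2 and lowest in βNrf2KO pools 3 and 4. Of 4 adipocyte genes, Adipoq, Plin1 and Lep were at or near 0, and the 4 summed to 2.39 to 4.01 CPM in βNrf2KO and 3.19 to 6.87 CPM in control. Nearly all of this was Fabp4, which endothelial cells and macrophages also express, with a log2 fold change of -0.79 ± 0.33 (edgeR, unadjusted p = 0.0318). The part of these cell types in the results was not tested, and fewer cells of a type and less RNA per cell cannot be told apart in bulk libraries.

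None of the 31 genes differed between βNrf2KO and control islets past the threshold, an adjusted p of 0.05. All 31 passed the filter on low counts, and edgeR's quasi-likelihood test, adjusted over 19893 genes, called 0 of them and 0 of all genes (0.0%). DESeq2 and limma-voom with sample quality weights also called 0 of the 31. At unadjusted p under 0.05, DESeq2 had 4 members higher (2.56% of the genes it tested) and 1 lower (3.57%). DESeq2 was run on 33919 genes without the filter on low counts, so its shares are not those of the 19893 filtered genes. At the same level limma-voom, run on the filtered genes, had 3 members higher (2.76%) and 0 lower (3.45%). Blocking edgeR's fit by pool number left the members' count at 0 of 31, against 0.0704% of all tested genes. The fold changes leaned to one side: 25 of 31 had a log2 fold change above 0, against 49.4% of all tested genes, and their median was 0.35 against -0.01 for all genes. At unadjusted p under 0.05 by edgeR, 4 of 31 were higher in βNrf2KO, where 3.23% of all tested genes were, and 1 was lower, where 5.23% were. With the block these counts were 6 higher (6.02% of all tested genes) and 1 lower (6.12%). The 5 genes without the block are Erg28, Insig2, Sc5d and Abcg1, each higher, and Nr1h2, lower. In 3 genes every βNrf2KO pool exceeded every control pool (3.19% of all tested genes), and in 0 the reverse held (3.81%).

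The lean was smaller without control pool 2. This pool was the lowest of the 7 in 22 of the 31 genes and in 16 of the 20 synthesis genes. Summed over these 20 genes, the level was 607.5, 572.3, 520.4 and 441.9 CPM in βNrf2KO pools, and 515.7, 244.5 and 471.5 CPM in control pools. Control pools 1 and 4 lay among the βNrf2KO pools, and control pool 2 stood far below every other pool. Without control pool 2, 22 of 31 genes were above 0 (48.6% of all tested genes), the median was 0.13, and 1 gene, Erg28, had an unadjusted p under 0.05 in the higher direction (0.903% of all tested genes). Without control pool 4, 10 members did (7.64%). Within pairs of the same pool number, 17 of 20 synthesis genes were higher in βNrf2KO in pair 1 and 19 of 20 in pair 2, but 5 of 20 in pair 4. In all, 7 members were higher in βNrf2KO in all 3 pairs (19.1% of all tested genes), namely Idi1, Sqle, Sc5d, Erg28, Insig2, Abca1 and Abcg1. Scap and Nr1h2 were lower in all 3 (17.9%).

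**Figure D1:**
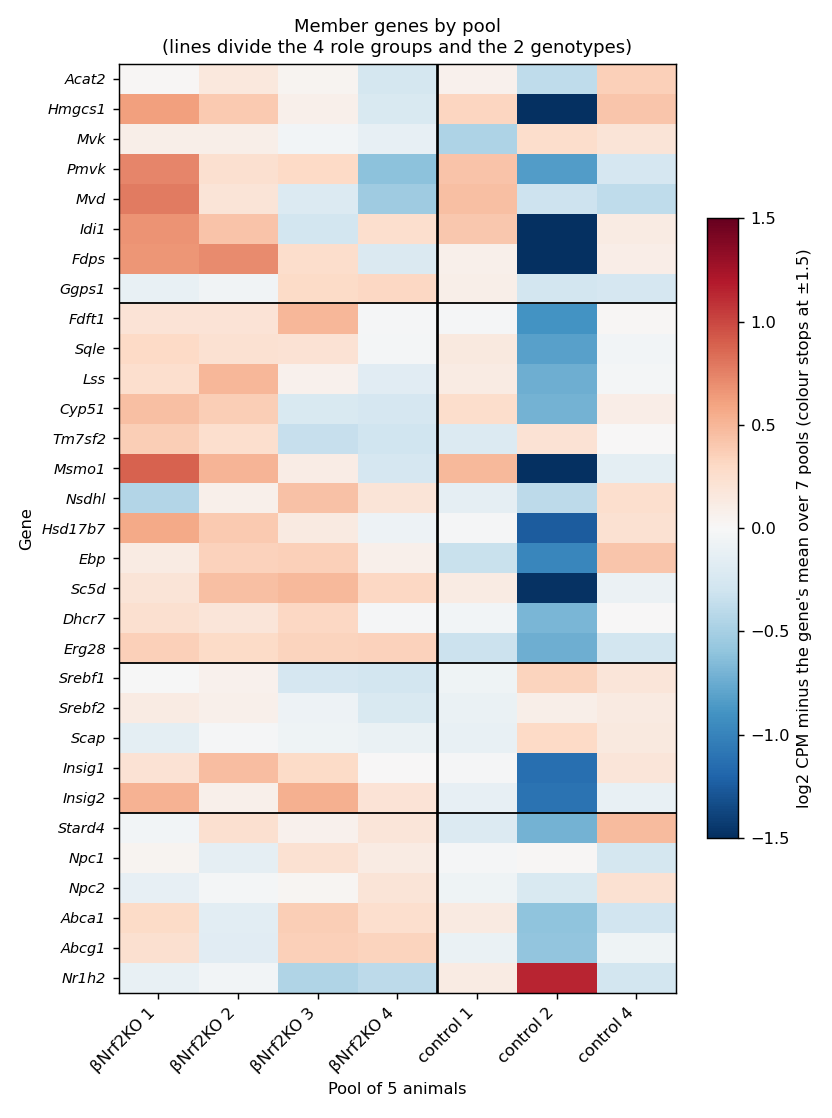
Log2 CPM of the 31 genes in each pool, as colour, relative to the mean of the gene over the 7 pools, with βNrf2KO pools on the left and control pools on the right. Control pool 2 is the lowest pool in 22 of 31 genes, while Nr1h2 is highest there.

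Per exon length, the levels of the 31 genes spanned more than an order of magnitude. Abca1, which exports cholesterol to lipid-poor apolipoproteins, was the highest, at 38.1 ± 5.73 RPKM (CPM per kilobase of exon; SD, n = 4) in βNrf2KO and 28.4 ± 7.37 RPKM (SD, n = 3) in control. Srebf2, the SREBP that chiefly drives sterol synthesis, was second by the mean over the 7 pools, with 25.5 ± 2.80 RPKM in βNrf2KO and 26.6 ± 2.25 RPKM in control. Abcg1, Insig1 and Hmgcs1 followed with means over the 7 pools of 23.6, 23.0 and 20.4 RPKM. These steps are smaller than the spread between pools, and in βNrf2KO alone Abcg1 (26.6 RPKM) and Insig1 (26.2 RPKM) were above Srebf2. Tm7sf2 and Pmvk were the lowest, at 1.16 and 1.23 RPKM. Among the 20 synthesis genes Hmgcs1, Sqle, Fdft1 and Ggps1 were the most abundant, with means of 20.4, 14.6, 12.9 and 12.4 RPKM over the 7 pools.

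**Figure D2:**
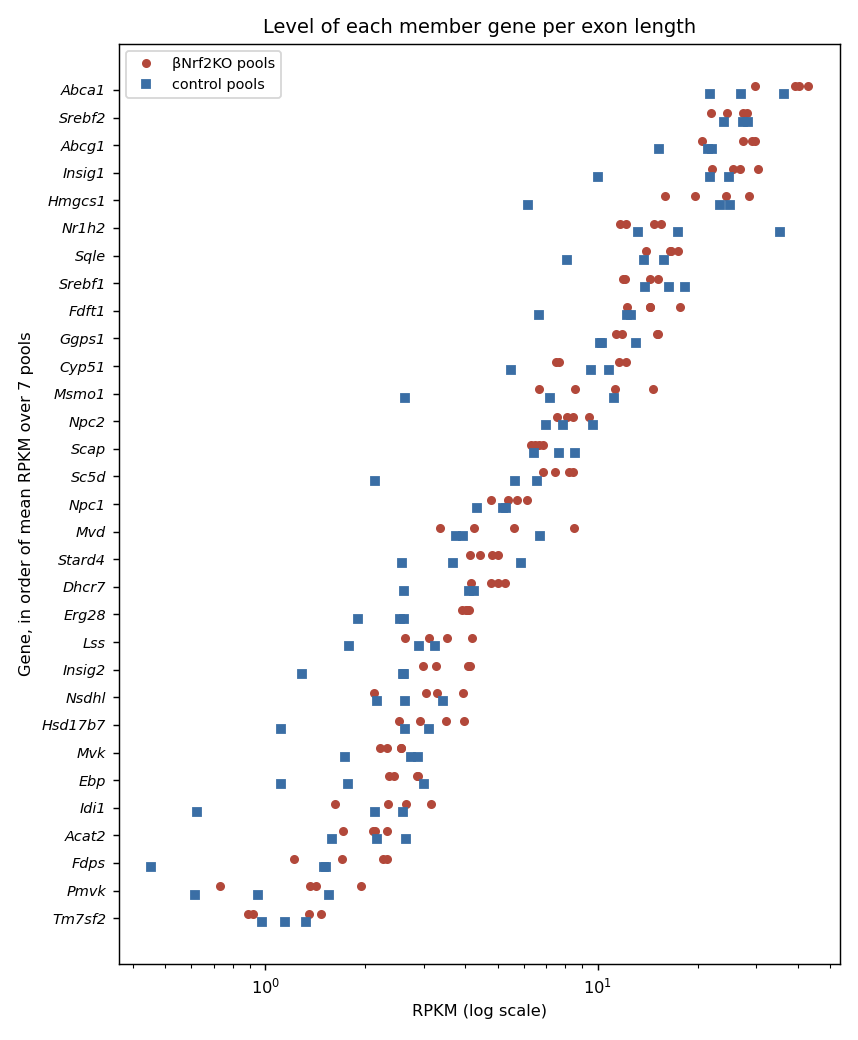
RPKM of each gene in the 4 βNrf2KO pools (circles) and 3 control pools (squares) on a log scale, in order of the mean over 7 pools. Abca1 is at the top and Tm7sf2, at a mean of 1.16 RPKM, at the bottom; the single low square of many synthesis genes is control pool 2.

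Among the genes of the mevalonate steps, 6 of 8 had log2 fold changes above 0, against 49.4% of all tested genes. Of the 8, 0 had an unadjusted p under 0.05 by edgeR, where 3.23% of all tested genes were higher and 5.23% lower. Hmgcs1, which makes HMG-CoA, was read at 92.0, 78.9, 63.2 and 51.5 CPM in βNrf2KO pools and at 75.3, 19.9 and 80.6 CPM in control pools. The groups overlapped, with control pool 2 far below the other 6 pools. Its log2 fold change was 0.28 ± 0.41 (edgeR, adjusted p = 0.815), and -0.13 ± 0.22 without control pool 2. Fdps, the synthase of farnesyl diphosphate, had the smallest p of this group. It was read at 9.53, 9.78, 7.17 and 5.15 CPM in βNrf2KO pools and at 6.31, 1.91 and 6.41 CPM in control pools. The groups overlapped, since βNrf2KO pool 4 was below control pools 1 and 4. The log2 fold change was 0.68 ± 0.39 (edgeR, adjusted p = 0.588), and 0.31 without control pool 2. Its counts are uncertain, because 26.7% of its exon bases are shared with the gene Gm43738 on the same strand and 4 processed pseudogenes match its transcript at over 96% identity.

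The other mevalonate genes differed by less than Fdps. Idi1, the isomerase of isopentenyl diphosphate, differed by 0.44 ± 0.40, and by 0.05 without control pool 2, where it was at 2.18 CPM against 7.51 and 9.09 CPM in the other control pools. The Idi1 counts may be split with the processed pseudogenes Gm13502 and Gm35570, which match 684 and 681 bases at 100% and 97.7% identity. Pmvk and Mvd, which phosphorylate and decarboxylate mevalonate derivatives, differed by 0.38 ± 0.42 and 0.18 ± 0.33, and by 0.13 and 0.06 without control pool 2. Both were highest in βNrf2KO pool 1. Ggps1, which extends farnesyl to geranylgeranyl diphosphate, differed by 0.26 ± 0.18. The processed pseudogene Gm5630 matches 903 bases of its transcript at 97.2% identity. Mvk, the mevalonate kinase, differed by -0.03 ± 0.24 and Acat2, a cytosolic acetoacetyl-CoA thiolase, by -0.05 ± 0.25. These became 0.09 for Mvk and -0.23 for Acat2 without control pool 2. The Acat2 counts may be split with Acat3, whose transcript matches 1477 bases at 97.7% identity.

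All 12 genes of the squalene and sterol steps had log2 fold changes above 0, against 49.4% of all tested genes, with a median of 0.40. At unadjusted p under 0.05 by edgeR, 2 of the 12 were higher, where 3.23% of all tested genes were. Summed over the 12, control pool 2 was at 176.2 CPM. The other control pools were at 368.8 and 329.9 CPM, and βNrf2KO pools at 323.3 to 436.8 CPM. Without control pool 2, Cyp51 turned to -0.065, and of the 12 only Erg28 kept an unadjusted p under 0.05 by edgeR. Erg28, a membrane protein known in yeast as a scaffold of C4-demethylation enzymes, showed the most even difference (ENSMUSG00000021252, GRCm38 chromosome 12, 85815448 to 85824550, minus strand). It was read at 17.3, 16.5, 17.1 and 17.2 CPM in βNrf2KO pools and at 10.8, 8.05 and 11.1 CPM in control pools. Every βNrf2KO pool lay above every control pool, and the βNrf2KO pools differed among themselves by a factor of 1.05. The log2 fold change was 0.77 ± 0.19 (edgeR, unadjusted p = 0.00167, adjusted p = 0.571), or 1.70-fold. It was 0.63 ± 0.18 without control pool 2 and ranged from 0.63 to 0.85 when each pool was left out. Erg28 had been named in earlier results of these data, so its place here is no independent support.

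Sc5d, the lathosterol desaturase near the end of the pathway, was read at 33.3, 40.0, 41.0 and 36.2 CPM in βNrf2KO pools and at 31.9, 10.4 and 27.4 CPM in control pools. The groups did not overlap, but βNrf2KO pool 1 and control pool 1 were close, and control pool 2 was far below the others. The log2 fold change was 0.69 ± 0.30 (edgeR, adjusted p = 0.571), and 0.34 ± 0.16 without control pool 2. Sqle, the epoxidase that commits squalene to sterols, was read at 97.0, 92.1, 91.7 and 77.3 CPM in βNrf2KO pools and at 87.5, 44.8 and 76.4 CPM in control pools. βNrf2KO pools 1, 2 and 3 were above all control pools, and βNrf2KO pool 4 was level with control pool 4. It differed by 0.36 ± 0.21 (edgeR, adjusted p = 0.597), and by 0.13 without control pool 2.

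The remaining 9 genes of these steps had log2 fold changes of 0.01 to 0.55 with overlapping groups. Msmo1, the C4-methylsterol oxidase, had the widest spread of all members in control, with the highest of the control pools 4.25 times the lowest. It was read at 90.2, 69.3, 52.6 and 40.9 CPM in βNrf2KO pools and at 68.7, 16.2 and 44.3 CPM in control pools, and differed by 0.55 ± 0.43 (edgeR, adjusted p = 0.660). Control pool 2 was the lowest library by a wide margin, and the difference was 0.17 without it. Hsd17b7 and Nsdhl, which act beside Msmo1 in C4-demethylation, differed by 0.49 ± 0.31 and 0.17 ± 0.26, and by 0.16 and 0.02 without control pool 2. Fdft1, the squalene synthase, differed by 0.48 ± 0.23, and by 0.24 without control pool 2. However, 26.8% of its exon bases overlap Ctsb on the opposite strand, and no source used here gives the strand setting of the counting. The processed pseudogene Gm6781 also matches 1249 bases of the Fdft1 transcript at 97.4% identity. Ebp, the sterol isomerase, and Dhcr7, which makes cholesterol from its last precursor, differed by 0.40 ± 0.32 and 0.39 ± 0.20, and by 0.12 and 0.20 without control pool 2. Lss and Cyp51, which form and demethylate lanosterol, differed by 0.35 ± 0.23 and 0.17 ± 0.26, and the C14 sterol reductase Tm7sf2 by 0.01 ± 0.28. The last 3 were 0.13 for Lss, -0.06 for Cyp51 and 0.12 for Tm7sf2 when control pool 2 was left out. Of the exon bases of Tm7sf2, 15.3% are shared with Vps51 on the same strand, so its counts are uncertain.

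**Figure D3:**
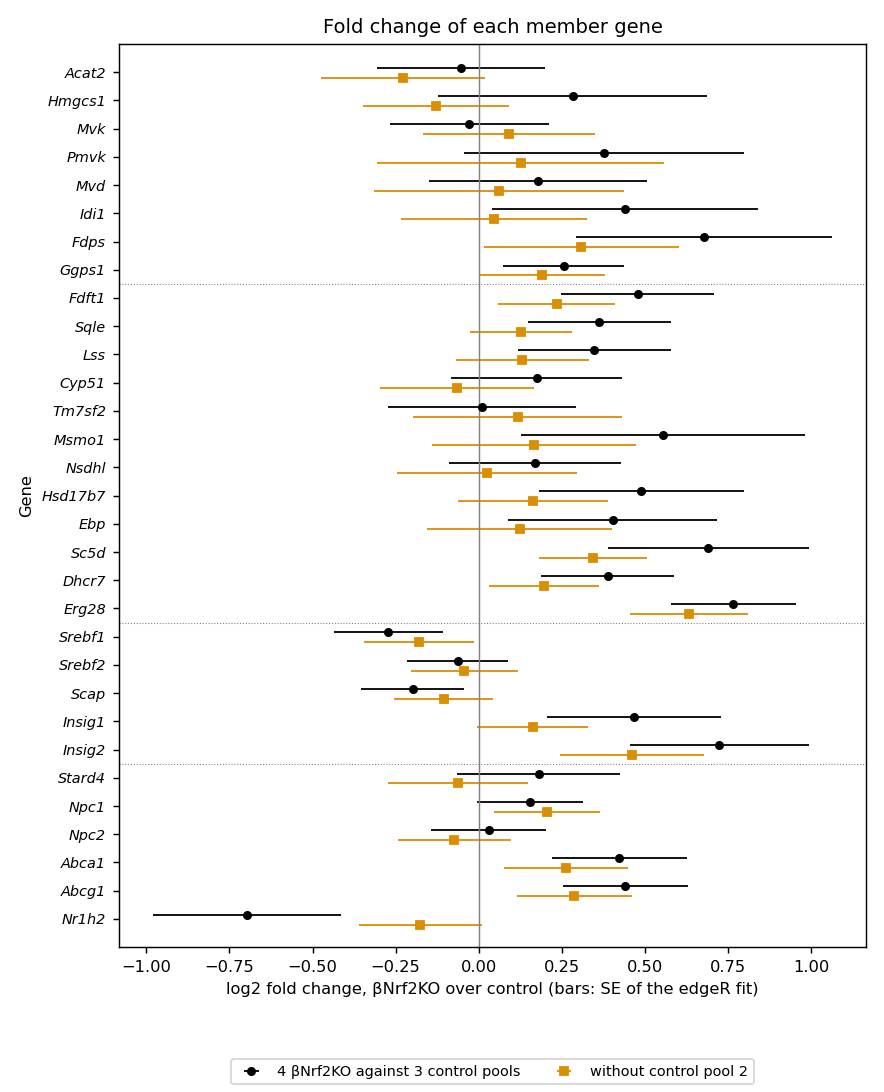
Log2 fold change of βNrf2KO over control for each gene with its SE, over all 7 pools (circles) and without control pool 2 (squares), with dotted lines between the 4 role groups. All 12 sterol genes are above 0 over all pools. Without control pool 2, Erg28 is at 0.63 and Cyp51 at -0.065.

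Promoters are shown for the 3 synthesis genes whose levels spread over more than 4-fold among the control pools, Hmgcs1, Idi1 and Msmo1, and for Erg28, the member with the smallest spread among the βNrf2KO pools. Each window runs from 250 bases before to 50 bases after the RefSeq start site (GRCm38.p6), which lies 105 to 343 bases from the gene start in the count files. Capitals mark matches on either strand to the sterol regulatory element TCACNCCAC, bound by SREBP, or to CCAAT, bound by NF-Y, a partner of SREBP at sterol genes. The motifs do not overlap each other here. The windows are chr13:119690101-119690400 (plus strand), chr13:8885356-8885655 (plus), chr8:64733529-64733828 (minus) and chr12:85824844-85825143 (minus).
Hmgcs1: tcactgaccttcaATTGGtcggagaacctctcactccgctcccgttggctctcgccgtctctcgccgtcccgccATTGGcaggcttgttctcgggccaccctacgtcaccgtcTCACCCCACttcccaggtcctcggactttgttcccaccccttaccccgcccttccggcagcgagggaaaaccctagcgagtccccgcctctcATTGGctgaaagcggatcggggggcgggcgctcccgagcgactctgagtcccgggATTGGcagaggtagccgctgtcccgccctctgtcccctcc
Idi1: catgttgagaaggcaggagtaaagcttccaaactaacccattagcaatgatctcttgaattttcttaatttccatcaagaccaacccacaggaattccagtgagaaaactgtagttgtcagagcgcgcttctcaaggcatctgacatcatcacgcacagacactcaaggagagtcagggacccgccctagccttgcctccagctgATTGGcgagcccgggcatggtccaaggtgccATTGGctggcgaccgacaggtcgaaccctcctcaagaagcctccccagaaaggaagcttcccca
Msmo1: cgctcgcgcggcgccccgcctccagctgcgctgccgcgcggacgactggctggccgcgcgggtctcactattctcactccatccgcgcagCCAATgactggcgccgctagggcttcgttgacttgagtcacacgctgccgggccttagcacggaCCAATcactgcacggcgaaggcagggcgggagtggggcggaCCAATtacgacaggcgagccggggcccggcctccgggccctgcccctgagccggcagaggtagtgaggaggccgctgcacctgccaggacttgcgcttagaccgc
Erg28: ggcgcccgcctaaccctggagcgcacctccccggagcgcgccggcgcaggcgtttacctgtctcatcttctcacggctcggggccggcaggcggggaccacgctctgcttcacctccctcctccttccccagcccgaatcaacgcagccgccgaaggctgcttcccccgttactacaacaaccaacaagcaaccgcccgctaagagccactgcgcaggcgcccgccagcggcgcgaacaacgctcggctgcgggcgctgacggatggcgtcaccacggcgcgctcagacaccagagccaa
The Hmgcs1 window holds 1 match to TCACNCCAC and 4 to CCAAT, the Idi1 window 2 to CCAAT and the Msmo1 window 3 to CCAAT. In the Erg28 window neither set of letters was found, which says nothing about the factors. Windows were found for 25 of the 31 genes. At least 1 CCAAT stood in 20 of these 25 genes, against 41.1% of all 27025 genes with a window, and TCACNCCAC in 1 of 25, against 1.44%. A match describes these letters only and is not a measured binding site.

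Of the 5 genes that regulate SREBP, Insig1 and Insig2 were above 0 and Srebf1, Srebf2 and Scap below. At unadjusted p under 0.05 by edgeR, 1 of the 5 was higher (3.23% of all tested genes) and 0 lower (5.23%). Insig2, an anchor of SCAP in the endoplasmic reticulum, was read at 14.1, 10.3, 14.3 and 11.3 CPM in βNrf2KO pools and at 9.03, 4.49 and 9.10 CPM in control pools. Every βNrf2KO pool was above every control pool. The log2 fold change was 0.72 ± 0.27 (edgeR, unadjusted p = 0.0202, adjusted p = 0.571), and 0.46 ± 0.22 without control pool 2. Insig1, the sterol-responsive anchor that is itself a target of SREBP, was read at 78.9, 93.6, 82.7 and 68.4 CPM in βNrf2KO pools and at 67.2, 31.1 and 77.0 CPM in control pools. The groups overlapped at βNrf2KO pool 4 and control pool 4, and control pool 2 was again far below. Insig1 differed by 0.47 ± 0.26 (edgeR, adjusted p = 0.587), and by 0.16 without control pool 2.

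The SREBP genes themselves did not follow the synthesis genes in control pool 2. Srebf2 was read at 140.3, 136.0, 121.9 and 109.6 CPM in βNrf2KO pools and at 119.9, 136.8 and 141.2 CPM in control pools. The groups overlapped throughout, and its log2 fold change was -0.06 ± 0.15 (edgeR, adjusted p = 0.895). Srebf1, which drives fatty acid genes and whose isoforms are not told apart by counts per gene, was read at 81.2, 85.4, 68.2 and 67.3 CPM in βNrf2KO pools and at 78.1, 102.9 and 92.5 CPM in control pools. Control pool 2 was here the highest of the 7, and control pool 1 lay among the βNrf2KO pools. Srebf1 differed by -0.27 ± 0.16 (edgeR, adjusted p = 0.598), and Scap, the escort of both SREBPs, by -0.20 ± 0.15. Leaving out control pool 2 gave -0.18 and -0.11. Of the exon bases of Scap, 13.2% overlap 5830462I19Rik on the opposite strand.

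**Figure D4:**
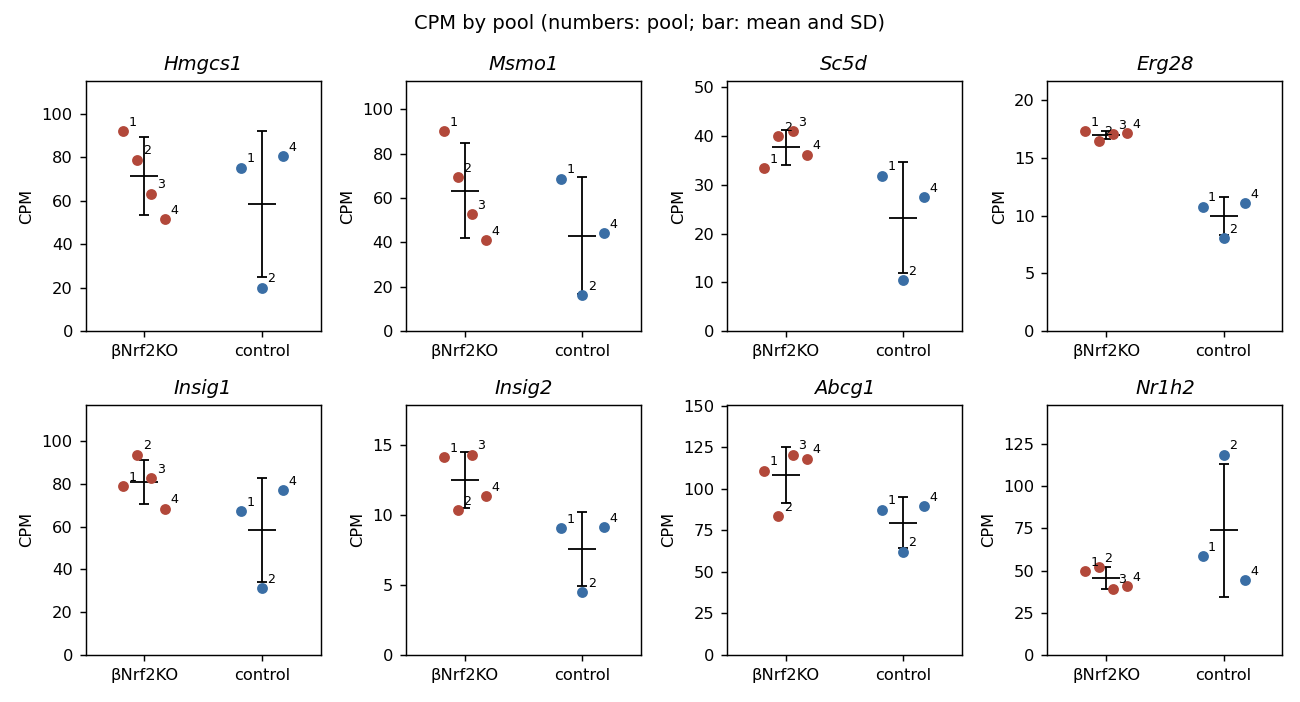
CPM of 8 genes in each pool (points, with pool numbers), with the mean and SD of each group (bars), βNrf2KO left of control and each axis starting at 0. Erg28, Sc5d and Insig2 do not overlap between groups; control pool 2 is lowest in all panels but Nr1h2, where it is highest at 118.6 CPM.

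Of the genes of transport and export, 5 of 6 had log2 fold changes above 0, against 49.4% of all tested genes. Abcg1, which passes cholesterol to lipoproteins and acts in insulin granules, was read at 110.8, 83.5, 120.5 and 118.1 CPM in βNrf2KO pools and at 87.4, 62.1 and 89.5 CPM in control pools. βNrf2KO pools 1, 3 and 4 were above all control pools, and βNrf2KO pool 2 was below control pools 1 and 4. The log2 fold change was 0.44 ± 0.19 (edgeR, unadjusted p = 0.0374, adjusted p = 0.571), and the difference was 0.34, 0.43 and 0.40 log2 CPM in pairs 1, 2 and 4. Without control pool 2 the log2 fold change of Abcg1 was 0.29 ± 0.17 (edgeR, unadjusted p = 0.128). Abca1 was read at 419.0, 308.4, 443.5 and 407.2 CPM in βNrf2KO pools and at 376.4, 225.6 and 280.5 CPM in control pools. The groups overlapped, since βNrf2KO pool 2 was below control pool 1. Abca1 differed by 0.42 ± 0.20 (edgeR, adjusted p = 0.571), and by 0.26 without control pool 2. Both exporters are also abundant in macrophages. The 8 macrophage markers were below 0 in the same comparison, with 0 of the 8 at unadjusted p under 0.05 by edgeR. The part of macrophages in the levels of the exporters was not tested.

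Nr1h2, the gene of LXRβ, ran the other way. It was read at 49.7, 52.1, 39.3 and 40.7 CPM in βNrf2KO pools and at 58.6, 118.6 and 44.2 CPM in control pools. Control pool 2 alone was far above the others, and control pool 4 lay among the βNrf2KO pools. The log2 fold change was -0.70 ± 0.28 (edgeR, unadjusted p = 0.0313, adjusted p = 0.571), and -0.18 ± 0.19 without control pool 2. The sterol carrier Stard4 differed by 0.18 ± 0.25, and by -0.06 without control pool 2. Npc1 and Npc2, which move cholesterol out of lysosomes, differed by 0.15 ± 0.16 and 0.03 ± 0.17, the second by -0.07 without control pool 2, and spread by at most 1.38-fold within either group.

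Other genes of the pathway were read from lists chosen by function. Of 9 genes of SREBP processing and turnover, 5 were above 0 (49.4% of all tested genes) and 0 had an unadjusted p under 0.05 by edgeR. Their smallest p values belonged to the ubiquitin ligase Syvn1 (-0.52 ± 0.26), the SREBP protease Mbtps2 (0.36 ± 0.19) and the ligase March6 (0.21 ± 0.18). Leaving out control pool 2 gave -0.09, 0.23 and 0.06, with 6 of the 9 genes above 0.

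Of 19 genes of uptake, esters and intracellular transport, 13 were above 0 (49.4% of all tested genes), with a median of 0.12. At unadjusted p under 0.05 by edgeR, 2 of the 19 were higher, where 3.23% of all tested genes were. These were Nceh1, a cholesteryl ester hydrolase (0.95 ± 0.32), and Soat1, which esterifies cholesterol (0.61 ± 0.25), both with an adjusted p of 0.571 by edgeR. Nceh1 was read at 32.4, 23.7, 50.5 and 38.9 CPM in βNrf2KO pools and at 23.7, 9.97 and 22.5 CPM in control pools. Control pool 2 was the lowest, and βNrf2KO pool 2 was level with control pool 1. Without control pool 2, Nceh1 differed by 0.65 ± 0.27 (edgeR, unadjusted p = 0.0339) and Soat1 by 0.36 ± 0.21 (edgeR, unadjusted p = 0.114). Lrp1, an endocytic receptor of lipoproteins, differed by -0.48 ± 0.23, and by -0.22 without that pool. Of 12 genes of efflux and LXR, 10 were below 0, with a median of -0.35, where 49.4% of all tested genes were above 0. Some of the 12 had few counts, down to 2 in control pool 2, which limits their precision. At unadjusted p under 0.05 by edgeR, 2 of the 12 were lower, where 5.23% of all tested genes were. These were Cyp46a1, a cholesterol 24-hydroxylase (-1.28 ± 0.39), and Apoe, an apolipoprotein (-0.73 ± 0.24), both with an adjusted p of 0.571 by edgeR. Rxrb, a partner of LXR, differed by -0.40 ± 0.20. Cyp46a1 was read at 2.29 to 3.26 CPM in βNrf2KO pools and at 4.83, 11.3 and 3.26 CPM in control pools, so that control pool 2 was again apart from the others. Without control pool 2, 9 of the 12 genes were below 0, with a median of -0.17. Cyp46a1 then differed by -0.61 ± 0.30 (edgeR, unadjusted p = 0.0723), Apoe by -0.53 ± 0.24 (edgeR, unadjusted p = 0.0570) and Rxrb by -0.19.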

How the data were processed

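Islet RNA of 7 pools was compared, 4 βNrf2KO and 3 control. The authors deposited unnormalized counts for each gene. The submitters' processing notes list base calling with bcl2fastq 2.20, trimming with Trimmomatic 0.36, alignment with STAR 2.5.2b and counting with featureCounts (Subread 1.5.2). For strand setting, multiply matching reads and annotation release, nothing is given in the sources used here. GRCm39 is the build in these notes, but 91.4% of the 49056 IDs also in GENCODE M21 (24 of the 31 members) had its GRCm38 start and end, so coordinates are in GRCm38. Library sizes and tests exclude the Cre entry.

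Counts were tested with edgeR 4.0.16 (R 4.3.3): TMM, filterByExpr, robust quasi-likelihood fit, two-sided test, Benjamini-Hochberg adjustment over 19893 genes, threshold 0.05. CPM and RPKM use TMM library sizes and the files' exon lengths; log2 CPM adds a prior count of 2. Errors of fold changes are SE, of means SD. The fit was tested on simulated data. Alternatives were library sizes without the mitochondrial genome, RLE or upper-quartile factors, no filter, and a filter of 1 CPM in 3 pools. Others were DESeq2 1.42.0, limma-voom with sample quality weights (limma 3.58.1), the pool number as a block, a threshold of 0.1 and leaving out each pool. After removal of group means, same-numbered pools had correlations over genes of 0.376, 0.229 and 0.323 (numbers 1, 2 and 4), so the numbers were taken as pairs. That pairing comes from the data; the labels do not explain the numbers, and other combinations ran from -0.353 to 0.241. Similar transcripts were sought with BLAST 2.17.0 (at least 95% identity over 300 bases).

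Members and lists were chosen with earlier results of these data known. Values in every pool are given for members with unadjusted p under 0.05, the smallest p of each role group, and Hmgcs1, Sqle, Erg28, Srebf1, Srebf2, Insig1 and Abca1; up to 3 genes with the smallest p are named per other list. Per-pool values of Msmo1, Nceh1, Cyp46a1, Acacb, Scd2 and Alb, and the naming of Fasn, Mafa, Ins1, Iapp, Apoa2 and Cyp3a11, were chosen after their values were seen. Some further genes of the pathway are not reported here. Nothing in the labels tells batches.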

Additional observations from a re-analysis of the deposited data

How the results depend on the processing

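No member was called under any alternative, the threshold of 0.1 and the replicate block included; the smallest adjusted p of a member was 0.160, without control pool 4. The count over all genes was 0 in the edgeR fit, 14 with the replicate block (1 higher, 13 lower, none a member), 1 by DESeq2 and 0 to 1 when each pool was left out (in both cases Hmcn2, named after its values were seen, without control pool 4 in the second); the cause was not tested. The block changed no other call. The median log2 fold change of the members stayed above 0 under every alternative, from 0.30 to 0.37 under other fits and from 0.13 to 0.49 when control pool 2 or control pool 1 was the pool left out. Among single genes the sign turned for Tm7sf2 with upper-quartile normalization (-0.002) and limma-voom (-0.06), for Mvk with limma-voom (0.006) and the replicate block (0.01), and for Mvd with limma-voom (-0.008). With each pool left out the sign also turned within these ranges: Acat2 -0.23 to 0.14, Hmgcs1 -0.13 to 0.58, Mvk -0.22 to 0.092, Mvd -0.13 to 0.49, Cyp51 -0.065 to 0.37, Tm7sf2 -0.14 to 0.12, Srebf2 -0.13 to 0.001, Stard4 -0.063 to 0.55 and Npc2 -0.073 to 0.17. Low counts limit the precision of Pmvk (16 to 62 counts per pool), Tm7sf2 (60 to 120), Ebp (39 to 209) and Fdps (29 to 209), among others; the labels name no molecular identifiers, so counting error is a lower limit.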

Other observations

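Fatty acid genes under SREBP-1 control were mixed. Of 17 tested, 9 had log2 fold changes above 0 (49.4% of all tested genes) and 8 below, with a median of 0.04. At unadjusted p under 0.05 by edgeR, 0 were higher (3.23% of all tested genes) and 1 lower (5.23%). The pools did not overlap in 1 gene that was higher (3.19% of all tested genes) and 1 that was lower (3.81%). Acacb, a mitochondrial acetyl-CoA carboxylase, was read at 8.72, 8.80, 8.81 and 8.86 CPM in βNrf2KO pools and at 9.94, 26.1 and 9.70 CPM in control pools, with no overlap. It differed by -0.79 ± 0.32 (edgeR, adjusted p = 0.571), and by -0.16 without control pool 2, which alone was far above the others. Elovl6, a fatty acid elongase, differed by 0.50 ± 0.23, and by 0.27 without that pool. Scd2, a stearoyl-CoA desaturase, was read at 158.6, 159.3, 206.9 and 149.8 CPM in βNrf2KO pools and at 140.7, 78.3 and 147.0 CPM in control pools. Its groups did not overlap, and it differed by 0.47 ± 0.22 (edgeR, adjusted p = 0.571), and by 0.23 without control pool 2, while the synthase Fasn differed by -0.00 ± 0.14.

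Of 12 genes of the isoprenoid branches, 8 were above 0 (49.4% of all tested genes). Their median was 0.14, with 0 at unadjusted p under 0.05 by edgeR. Icmt, which methylates prenylated proteins, differed by 0.33 ± 0.18, Nus1, a subunit of the dolichol synthase, by 0.34 ± 0.19 and Fnta, a subunit of protein prenyltransferases, by 0.33 ± 0.19. Fnta was the 1 gene of the 12 in which every βNrf2KO pool exceeded every control pool (3.19% of all tested genes). When control pool 2 was left out, Icmt differed by 0.22, Nus1 by 0.18 and Fnta by 0.34, with a median of 0.05 for the 12 genes.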
